A study of Mus musculus with 36 samples.

Results

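A set of 10 genes of protein folding in the endoplasmic reticulum was followed across whole mouse hearts: Hspa5, Hsp90b1, Calr, Pdia3, Pdia4, Pdia6, Dnajb9, Xbp1, Manf and Creld2. They were chosen by symbol and are 10 of the 25626 genes in the deposited table, and all 10 passed the filter on low values. The study asked by which pathways mitochondrial reactive oxygen species may worsen heart disease in cSirt4-Tg mice, and compared 36 hearts in 6 groups of 6. Controls (genotype Control) and cSirt4-Tg mice (a Sirt4 transgene, Sirt4 being a mitochondrial sirtuin) had sham surgery (Con-Sham, cSirt4-Tg-Sham) or TAC, transverse aortic constriction, which loads the left ventricle with pressure (Con-TAC, cSirt4-Tg-TAC). The other two groups had TAC and MitoQ, a mitochondria-targeted antioxidant (Con-TAC-MQ, cSirt4-Tg-TAC-MQ), and the first 4 groups had vehicle. The sources used here do not give the promoter of the transgene, the age of the mice or the time after surgery. Sirt4 itself averaged 412 ± 96.6 in Con-Sham and 377 ± 48.0 in cSirt4-Tg-Sham (mean ± SD, normalized count), and it was not called higher in cSirt4-Tg hearts in any comparison. Whole hearts are mixed tissue, so fewer cells of a type and less RNA per cell cannot be told apart.

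The endoplasmic reticulum folds proteins that enter the secretory pathway. Chaperones such as Hspa5 (BiP, GRP78) hold unfolded chains, disulfide isomerases form and rearrange disulfide bonds, and lectin chaperones hold glycoproteins until they are folded. When unfolded protein builds up, the sensors Ire1 (Ern1), Perk (Eif2ak3) and Atf6 start the unfolded protein response, in which spliced Xbp1, Atf6 and Atf4 raise transcription of the folding genes. In the heart, pressure load and the production of extracellular matrix are known to engage this response.

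The promoters of these genes are known for the endoplasmic reticulum stress element (ERSE, letters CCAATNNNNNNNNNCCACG on either strand), which Atf6 binds together with the factor NF-Y. RefSeq windows of 300 bases (250 before to 50 after the annotated start, build GRCm38.p6) matched 9 of the 10 genes; Manf had no entry. An ERSE was found in 5 of the 9 windows, against 39 of all 32851 windows of that length (0.119%). The stretches with the element are printed below 5′ to 3′ on the strand of the gene, with its conserved ends in capitals, because they are the sequence feature found in 5 of the genes. On a stretch where the element lies on the opposite strand, the capitals read CGTGG and ATTGG. The stretches are chr2:34772000-34772068 on the plus strand (Hspa5), chr10:86705508-86705681 on the minus strand (Hsp90b1), chr8:84847050-84847118 on the minus strand (Calr), chr12:17266466-17266534 on the plus strand (Pdia6) and chr15:88819495-88819563 on the plus strand (Creld2).
Hspa5: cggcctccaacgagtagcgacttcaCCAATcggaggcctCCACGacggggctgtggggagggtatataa
Hsp90b1: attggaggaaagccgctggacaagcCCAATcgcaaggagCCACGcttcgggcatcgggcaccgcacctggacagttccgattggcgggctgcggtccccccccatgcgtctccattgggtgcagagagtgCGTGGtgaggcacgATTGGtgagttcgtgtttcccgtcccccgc
Calr: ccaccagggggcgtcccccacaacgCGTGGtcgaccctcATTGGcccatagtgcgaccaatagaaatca
Pdia6: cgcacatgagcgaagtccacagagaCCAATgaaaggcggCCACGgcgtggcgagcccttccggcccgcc
Creld2: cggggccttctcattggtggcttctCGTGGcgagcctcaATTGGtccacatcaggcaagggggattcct

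The Hsp90b1 stretch held 2 elements, at 212 to 194 and at 107 to 89 bases before the start, and each of the other 4 held 1. The Hspa5 element lay nearest its start, at 65 to 47 bases. No ERSE was found in the windows of Pdia3, Pdia4, Dnajb9 and Xbp1, which says only that these letters are not in those windows. Among 93 other genes of the endoplasmic reticulum lists below that had a window, 5 held an ERSE (5.38%): Canx, Derl3, Dnajc3, Ero1b and Syvn1. The related elements ERSE-II (ATTGGNCCACG) and UPRE (TGACGTGG), searched on both strands, were in none of the 9 windows and in 0.0365% and 0.676% of all windows. A CCAAT alone was in 8 of the 9 windows and in 37.4% of all. These matches are letters in a sequence, and binding was not measured.

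**Figure D1:**
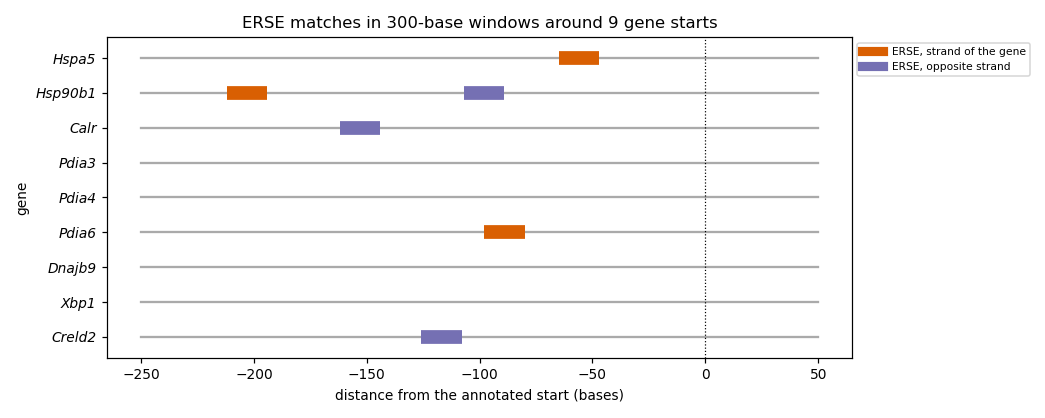
Positions of ERSE matches (bars) relative to the annotated start (dotted line, distance in bases) in the 300-base windows of 9 genes, on the strand of the gene or the opposite strand. The matches lie between 212 and 47 bases before the start in 5 genes, with 2 in Hsp90b1.

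Values are normalized counts, that is, reads per gene scaled by the authors for the size of each library. The libraries held 14834719 to 60010648 reads over the listed genes, and the least covered value of a member was 185 reads (Creld2 in a cSirt4-Tg-TAC-MQ heart). All 6 groups had high cardiomyocyte transcripts: the sum of 12 cardiomyocyte markers was 1071205 to 2676793 normalized counts in the 36 hearts. In all, 4 libraries were less like the rest of their group over all genes (median correlation under 0.95): Con-TAC 6, Con-TAC-MQ 3, cSirt4-Tg-TAC 4 and cSirt4-Tg-TAC 6. Con-TAC-MQ 3 held the highest value of its group in all 10 genes, cSirt4-Tg-TAC 4 in 7 and cSirt4-Tg-TAC 6 in the other 3. The number in the library name, whose meaning the labels do not give, was 7 to 12 in 5 of the 6 hearts of Con-TAC and of cSirt4-Tg-TAC, and 20 or 21 in every MitoQ heart. It was 20 in Con-TAC 6 and 29 in cSirt4-Tg-TAC 6. MitoQ and this number therefore cannot be told apart in most of the data. In Con-Sham the number was 11, 11, 14, 29, 30 and 30, and in cSirt4-Tg-Sham 9, 9, 11, 30, 30 and 31. No TAC heart other than cSirt4-Tg-TAC 6 had a number of 29 or more. TAC and this number are therefore partly mixed too, and more so where cSirt4-Tg-TAC 6 is left out.

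None of the 10 genes passed the test in any of the 7 comparisons between groups. A gene was called when limma on log2(normalized count + 1) gave a Benjamini-Hochberg adjusted p under 0.05 over the 16275 genes tested. The labels give 6 separate samples a group and no more of their origin, so p-values measure the spread between these samples. The highest group mean was 1.16 (Calr) to 1.41 (Manf) times the lowest, and for no gene were neighbouring groups in the order of means apart in their values. Per kilobase of exon, Hspa5 was the most abundant with a mean level of 3974 normalized counts per kilobase over the 36 hearts. Calr (2774), Hsp90b1 (2411) and Pdia3 (1384) followed on the same scale. Pdia6 (612), Dnajb9 (543), Xbp1 (532) and Pdia4 (408) were lower, and Creld2 (298) and Manf (284) lowest. The ranges over hearts overlapped between neighbours in this order, such as 2122 to 4681 for Calr and 1774 to 3586 for Hsp90b1. The length counts every annotated exon of a gene, so it can exceed that of a single transcript. It was 3524 bases for Manf and 1366 for Creld2, with mean counts of 1000 and 407, so their order depends on it.

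**Figure D2:**
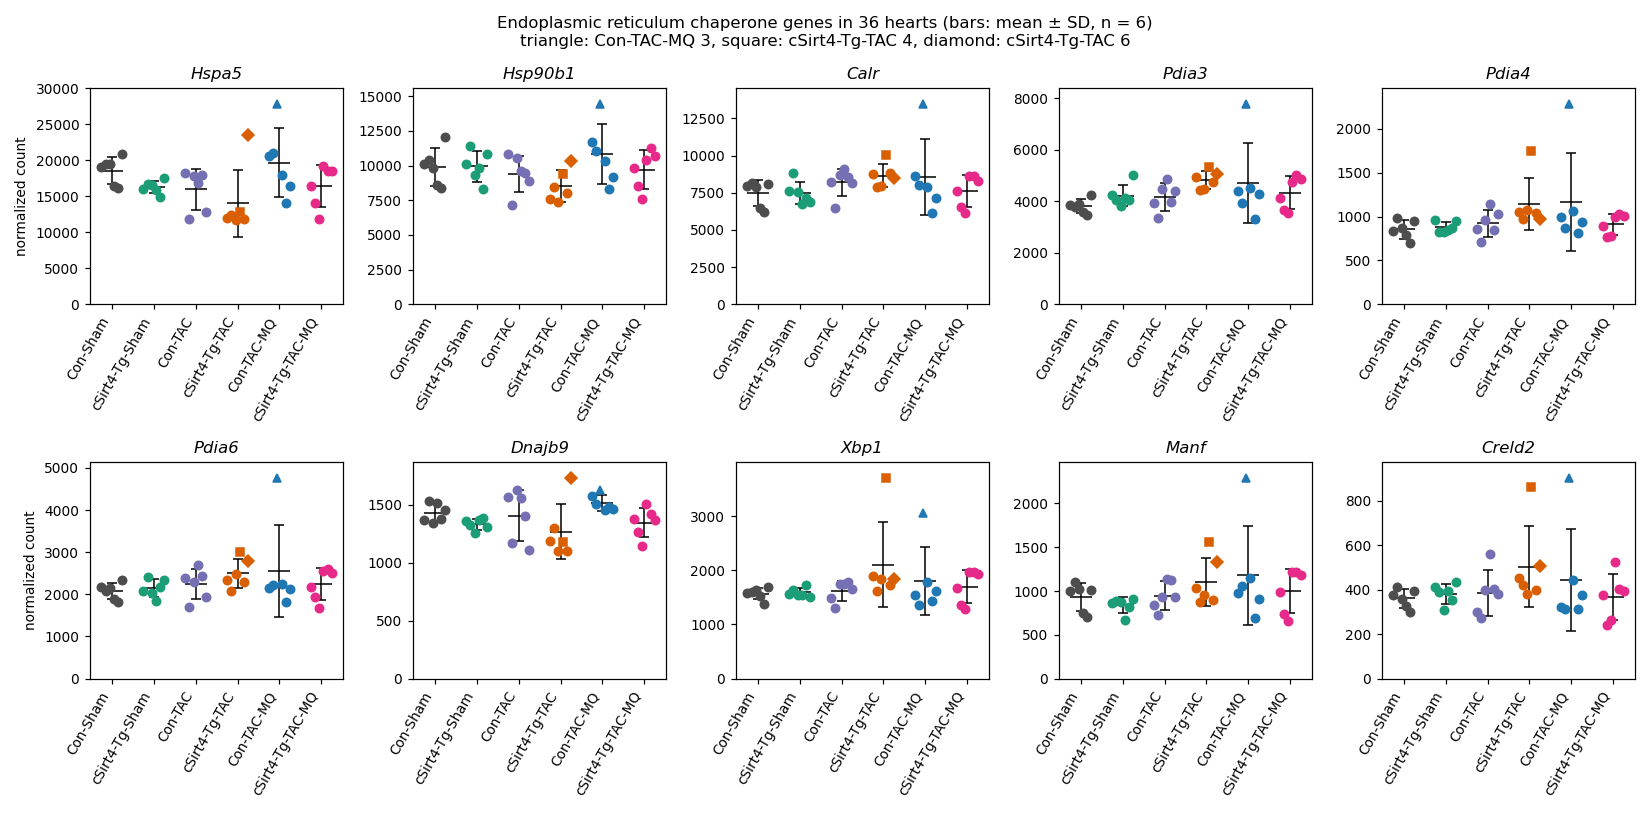
Normalized count of each of the 10 genes (vertical axis, from 0) in each heart (points) of the 6 groups, with the mean and SD of 6 hearts as bars. Con-TAC-MQ 3 (triangle) is the highest of all 36 hearts in 8 genes, and cSirt4-Tg-TAC 6 (diamond) stands at 23466 for Hspa5 above the other 5 hearts of its group.

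The ATP-driven chaperones are Hspa5, the Hsp70 of the endoplasmic reticulum, and Hsp90b1 (GRP94), its Hsp90. Hspa5 (ENSMUSG00000026864, chromosome 2, 34661982 to 34667559), in mm39 coordinates as all genes here, ran from 16124 to 20876 (median 19235) in Con-Sham and from 14936 to 17571 (median 16332) in cSirt4-Tg-Sham. After TAC with vehicle it ran from 11897 to 18253 (median 17347) in Con-TAC and from 11762 to 23466 (median 12168) in cSirt4-Tg-TAC. With MitoQ it ran from 14056 to 27838 (median 19228) in Con-TAC-MQ and from 11773 to 19197 (median 17424) in cSirt4-Tg-TAC-MQ. The cSirt4-Tg-TAC group split into 5 hearts at 11762 to 12801, below all 6 cSirt4-Tg-Sham hearts, and 1 heart, cSirt4-Tg-TAC 6, above all of them. Levels as low were also found in Con-TAC 2 (11897), Con-TAC 6 (12797) and cSirt4-Tg-TAC-MQ 3 (11773). Over all 6 cSirt4-Tg-TAC hearts the difference from cSirt4-Tg-Sham did not pass (log2 -0.26, SE 0.15, adjusted p = 0.235, 95% interval -0.57 to 0.05), nor did that from Con-TAC (log2 -0.21, SE 0.15, adjusted p = 0.378). Without cSirt4-Tg-TAC 6, Hspa5 was lower in the other 5 hearts (12133 ± 461, SD, n = 5, limma) than in cSirt4-Tg-Sham (16273 ± 896; log2 -0.42, SE 0.13, adjusted p = 0.0170). It was then also lower than in Con-TAC (log2 -0.37, SE 0.13, adjusted p = 0.0418), and higher in cSirt4-Tg-TAC-MQ than in those 5 hearts (log2 0.42, SE 0.13, adjusted p = 0.0200). Without that library 14.9% of all genes were called lower than in cSirt4-Tg-Sham and 11.4% lower than in Con-TAC, and 14.8% higher in cSirt4-Tg-TAC-MQ, so such calls were common. The library cSirt4-Tg-TAC 6 had the highest cardiomyocyte marker sum of its group (2502635, the others at most 1897208) and the lowest fibroblast marker sum (78362, the others at least 108819), and the part of these in its Hspa5 level was not tested.

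Hsp90b1 (ENSMUSG00000020048, chromosome 10, 86526073 to 86541373) ran from 8391 to 12088 (median 9959.6) in Con-Sham and from 8283 to 11427 (median 9960.4) in cSirt4-Tg-Sham. It ran from 7154 to 10813 (median 9526) in Con-TAC and from 7362 to 10352 (median 8224) in cSirt4-Tg-TAC, and from 8292 to 14459.5 (median 10678) in Con-TAC-MQ and from 7565 to 11274 (median 10104) in cSirt4-Tg-TAC-MQ. All groups overlapped, and the lowest mean was again that of cSirt4-Tg-TAC (8521 ± 1142). Its difference from cSirt4-Tg-Sham did not pass (log2 -0.23, SE 0.12, adjusted p = 0.193). Without the 4 libraries least like their group it passed (log2 -0.34, SE 0.12, adjusted p = 0.0298), and Hspa5 did as well (log2 -0.44, SE 0.12, adjusted p = 0.00608), where 14.7% of all genes were called lower.

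Dnajb9 (ENSMUSG00000014905, chromosome 12, 44252342 to 44257109) encodes ERdj4, a J-domain partner of Hspa5. It varied least of the 10 genes, from 1103 to 1732 over the 36 hearts. The values ran from 1345 to 1531 (median 1417) in Con-Sham, from 1253 to 1383 (median 1345) in cSirt4-Tg-Sham and from 1111 to 1626 (median 1481) in Con-TAC. They ran from 1103 to 1732 (median 1181) in cSirt4-Tg-TAC, from 1453 to 1633 (median 1494) in Con-TAC-MQ and from 1144 to 1505 (median 1374) in cSirt4-Tg-TAC-MQ. As with Hspa5, cSirt4-Tg-TAC 6 was the highest of its group, at 1732 against at most 1301 in the other 5. The difference between cSirt4-Tg-TAC and Con-TAC did not pass over all hearts (log2 -0.15, SE 0.09, adjusted p = 0.283), and passed without cSirt4-Tg-TAC 6 (log2 -0.25, SE 0.08, adjusted p = 0.0254). Every Con-TAC-MQ heart lay above the Con-TAC mean of 1406, without passing the test (log2 0.13, SE 0.09, adjusted p = 0.486).

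Calr (ENSMUSG00000003814, chromosome 8, 85568479 to 85573563) encodes calreticulin, a lectin chaperone that binds glycoproteins and calcium. It ran from 6211 to 8127 (median 7920.3) in Con-Sham, from 6756 to 8799 (median 7355) in cSirt4-Tg-Sham and from 6453 to 9077 (median 8368) in Con-TAC. It ran from 7900.2 to 10038 (median 8613) in cSirt4-Tg-TAC, from 6161 to 13482 (median 7949.6) in Con-TAC-MQ and from 6111 to 8605 (median 7936) in cSirt4-Tg-TAC-MQ. Its group means differed least of the 10, from 7453 ± 874 in Con-Sham to 8649.5 ± 780.3 in cSirt4-Tg-TAC. All 6 cSirt4-Tg-TAC hearts were above the cSirt4-Tg-Sham mean of 7454, with overlapping groups (log2 0.22, SE 0.12, adjusted p = 0.230).

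The disulfide isomerases form and exchange disulfide bonds; Pdia3 (ERp57) works with calreticulin on glycoproteins. Pdia3 (ENSMUSG00000027248, chromosome 2, 121244256 to 121269168) ran from 3469 to 4260.3 (median 3813) in Con-Sham, from 3822 to 5035 (median 4099.6) in cSirt4-Tg-Sham and from 3361 to 4878 (median 4185) in Con-TAC. In cSirt4-Tg-TAC it ran from 4429 to 5332 (median 4843), in Con-TAC-MQ from 3329.9 to 7789 (median 4335) and in cSirt4-Tg-TAC-MQ from 3526 to 5017 (median 4451). All 6 cSirt4-Tg-TAC hearts exceeded the means of both Con-TAC and cSirt4-Tg-Sham, and neither difference passed (log2 0.22, SE 0.12, adjusted p = 0.260 from Con-TAC; log2 0.20, SE 0.12, adjusted p = 0.285 from cSirt4-Tg-Sham). ERp72 is encoded by Pdia4 (ENSMUSG00000025823, chromosome 6, 47773075 to 47790364), which ran from 701 to 981 (median 853) in Con-Sham, from 823 to 957 (median 859.9) in cSirt4-Tg-Sham and from 706 to 1138 (median 909) in Con-TAC. It ran from 970.1 to 1748 (median 1045) in cSirt4-Tg-TAC, from 812 to 2288 (median 967) in Con-TAC-MQ and from 766 to 1034 (median 945) in cSirt4-Tg-TAC-MQ. Its cSirt4-Tg-TAC and cSirt4-Tg-Sham hearts did not overlap, the single such case among the 70 pairs of gene and comparison, beside 2.21% of all genes in that comparison. The gap was small, from 957 to 970.1, and the difference did not pass after adjustment (log2 0.35, SE 0.16, adjusted p = 0.142, unadjusted p = 0.0429). Without cSirt4-Tg-TAC 4, the highest heart at 1748, it was smaller (log2 0.22, SE 0.16, adjusted p = 0.389). P5 is encoded by Pdia6 (ENSMUSG00000020571, chromosome 12, 17316546 to 17334771), which ran from 1820.3 to 2328 (median 2117) in Con-Sham, from 1846 to 2408 (median 2118) in cSirt4-Tg-Sham and from 1691 to 2696 (median 2340.4) in Con-TAC. It ran from 2084 to 2998 (median 2406) in cSirt4-Tg-TAC, from 1813 to 4758 (median 2181) in Con-TAC-MQ and from 1676 to 2592 (median 2337) in cSirt4-Tg-TAC-MQ. The Pdia6 groups overlapped throughout, and its difference between cSirt4-Tg-TAC and cSirt4-Tg-Sham was of the same order (log2 0.21, SE 0.15, adjusted p = 0.341).

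Xbp1 (ENSMUSG00000020484, chromosome 11, 5470659 to 5475893) encodes the transcription factor that Ire1 activates by splicing its mRNA; these gene counts do not separate the spliced from the unspliced form. It ran from 1379.8 to 1693 (median 1582) in Con-Sham, from 1514 to 1726 (median 1555) in cSirt4-Tg-Sham and from 1302 to 1780.2 (median 1697) in Con-TAC. It ran from 1623 to 3701 (median 1837) in cSirt4-Tg-TAC, from 1356 to 3051 (median 1577) in Con-TAC-MQ and from 1289 to 1973 (median 1798) in cSirt4-Tg-TAC-MQ. In cSirt4-Tg-TAC, 5 hearts lay at 1623 to 1895 and cSirt4-Tg-TAC 4 at 3701, the highest of the 36. Over all 6 hearts the differences from cSirt4-Tg-Sham (log2 0.34, SE 0.16, adjusted p = 0.131) and from Con-TAC (log2 0.32, SE 0.16, adjusted p = 0.187) did not pass, and without cSirt4-Tg-TAC 4 they were smaller (log2 0.17, SE 0.13, adjusted p = 0.446 from cSirt4-Tg-Sham; log2 0.15, SE 0.13, adjusted p = 0.587 from Con-TAC). Xbp1 is also needed by plasma cells, and cSirt4-Tg-TAC 4 stood apart in their genes. The sum of 12 plasma and B cell markers was 58001 in this heart and at most 903 in the other 35. The immunoglobulin chain Igkc was at 23767 (at most 99.3 in the other 35) and the joining chain Jchain at 6764 (at most 33.5). The B cell gene Ms4a1 (411, at most 40.6 elsewhere) was high in it too. Mzb1 (26.9, up to 41.8 elsewhere) and Tnfrsf17 (3 reads), which plasma cells express, were not. Adipocyte markers were high in the same heart, with Adipoq at 2678 and at most 29.7 elsewhere. The part of these cells in its Xbp1 level was not tested. The library of cSirt4-Tg-TAC 4 also had the fewest reads of the 36 (14834719) and the lowest share from the mitochondrial genome (13.1%). Its share from the ribosomal RNA row Rn18s-rs5 was the highest of the 36 (11.8%), and the part of these was not tested. In Con-TAC-MQ 3, where Xbp1 was 3051, the plasma and B cell sum was 864, the highest of its group (the others at most 552). Sdc1, which plasma cells and other cells express, made up most of it at 614, the highest of the 36 (at most 211 in its group). Igkc was at 16.2 and Jchain at 5.77 there.

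**Figure D3:**
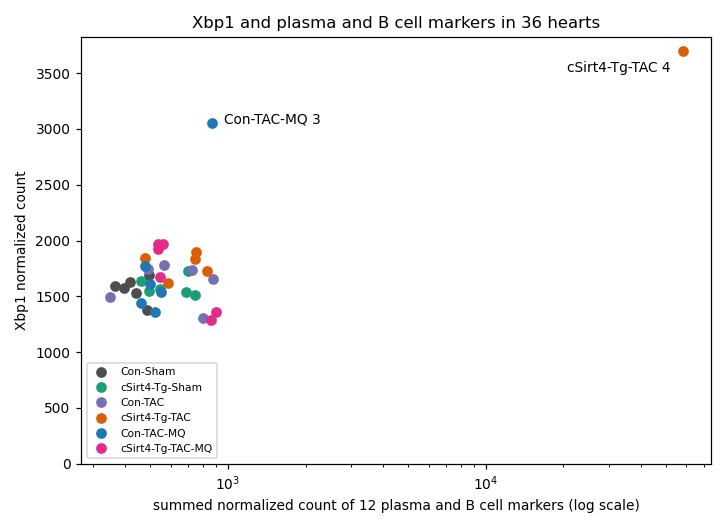
Xbp1 normalized count (vertical axis, from 0) against the summed normalized count of 12 plasma and B cell markers (horizontal log axis) in each of 36 hearts, coloured by group. cSirt4-Tg-TAC 4 is high on both axes (3701 and 58001), and Con-TAC-MQ 3 is high in Xbp1 (3051) with a marker sum of 864.

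Manf and Creld2 encode small secreted proteins of the endoplasmic reticulum that are induced by its stress; Manf is also known as a neurotrophic factor. Manf (ENSMUSG00000032575, chromosome 9, 106715511 to 106769178) ran from 704 to 1103 (median 1005) in Con-Sham, from 664 to 908 (median 872) in cSirt4-Tg-Sham and from 725 to 1138 (median 933) in Con-TAC. It ran from 879 to 1556 (median 994) in cSirt4-Tg-TAC, from 686 to 2290.3 (median 1016) in Con-TAC-MQ and from 653 to 1216 (median 1088) in cSirt4-Tg-TAC-MQ. All 6 cSirt4-Tg-TAC hearts were above the cSirt4-Tg-Sham mean of 836, the largest difference of the 10 genes in that comparison, and it did not pass (log2 0.38, SE 0.20, adjusted p = 0.181, 95% interval -0.02 to 0.78). Creld2 (ENSMUSG00000023272, chromosome 15, 88703849 to 88710886) ran from 299 to 410.4 (median 367) in Con-Sham, from 309 to 436 (median 390.3) in cSirt4-Tg-Sham and from 271 to 562 (median 390.4) in Con-TAC. It ran from 381 to 864 (median 435) in cSirt4-Tg-TAC, from 314 to 902 (median 349) in Con-TAC-MQ and from 241 to 525 (median 385) in cSirt4-Tg-TAC-MQ. Creld2 had the widest relative range, from 241 to 902 over the 36 hearts. It was lower in cSirt4-Tg-TAC-MQ than in cSirt4-Tg-TAC at the unadjusted level only (log2 -0.44, SE 0.21, adjusted p = 0.150, unadjusted p = 0.0465), and cSirt4-Tg-TAC 4 (864) was the highest heart of that contrast. Without it the difference was smaller (log2 -0.27, SE 0.21, adjusted p = 0.398).

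The first question is the response to TAC. Between Con-TAC and Con-Sham, 0 of the 10 genes were called by limma, and 5.30% of the 16275 genes tested were (863 genes, and 134 to 1543 when single hearts were left out). At an unadjusted p under 0.05 the count was 0 as well, beside 22.5% of all genes, and edgeR and DESeq2 on recovered reads also called 0. The differences ran from -0.23 (Hspa5) to 0.14 (Calr) on the log2 scale, 7 of them positive (51.4% of all genes), with a median of 0.05 beside 0.009 for all genes. No gene had groups that did not overlap, beside 3.66% of all genes. The 95% intervals of the 10 spanned -0.55 to 0.50 on the log2 scale. In the cSirt4-Tg mice, between cSirt4-Tg-TAC and cSirt4-Tg-Sham, 0 of 10 were called by limma, edgeR and DESeq2, beside 16.7% of all genes. At the unadjusted level 2 of 10 (Pdia4 and Xbp1) had an unadjusted p under 0.05, against 31.9% of all genes. Hspa5, Hsp90b1 and Dnajb9 differed downward (log2 -0.26, -0.23 and -0.09) and the other 7 upward (48.7% of all genes were positive), between 0.20 and 0.38. The median was 0.21, beside -0.01 for all genes, and each of the 10 signs was the same in every alternative tried. The 95% intervals spanned -0.57 to 0.78. In the same comparison 7 of 12 fibroblast markers were called higher and 3 of 12 cardiomyocyte markers lower, and the part of these cells was not tested. The difference between the 2 responses to TAC was called for 0 of 10 genes by limma and by edgeR and DESeq2, beside 0% of all genes, and 0 had an unadjusted p under 0.05, beside 5.83%. Of these differences 7 were positive (47.1% of all genes), the largest that of Manf at log2 0.35 (95% interval -0.22 to 0.92).

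The second question is the genotype. Between cSirt4-Tg-Sham and Con-Sham, 0 of 10 were called by limma, edgeR or DESeq2 and 0 had an unadjusted p under 0.05, beside 0.873% of all genes called and 13.1% at that unadjusted level. The differences ran from -0.19 (Hspa5) to 0.15 (Pdia3), 7 of them positive (50.2% of all genes), with a median of 0.02 beside 0.00092 for all genes. The 95% intervals spanned -0.54 to 0.52. In this comparison 7 of 12 macrophage markers and 1 of 12 fibroblast markers were called higher. Fibroblast marker sums were 53149 to 60622 in Con-Sham and 73617 to 103897 in cSirt4-Tg-Sham, with no overlap. The part of these cells was not tested. For the 10 genes all groups overlapped, where 3.89% of all genes did not. All 6 cSirt4-Tg-Sham hearts were below the Con-Sham mean of Hspa5 (18563), of Dnajb9 (1433.5) and of Manf (931), and all 6 above that of Pdia3 (3806). Between cSirt4-Tg-TAC and Con-TAC, 0 of 10 were called by limma, edgeR or DESeq2, beside 6.48% of all genes. Xbp1 alone had an unadjusted p under 0.05 (0.0496), 1 of 10 against 26.5% of all genes. Hspa5, Hsp90b1 and Dnajb9 differed downward and 7 upward (50.1% of all genes), up to log2 0.36 for Creld2. The 95% intervals spanned -0.53 to 0.79. The groups of all 10 overlapped, where 0.971% of all genes did not. This comparison and the one with cSirt4-Tg-Sham share the cSirt4-Tg-TAC hearts. Fibroblast marker sums were 59344 to 117247 in Con-TAC and 78362 to 187633 in cSirt4-Tg-TAC, with 3 of 12 markers called higher and 0 lower in cSirt4-Tg-TAC. Macrophage sums were 8864 to 12569.8 and 9586 to 22822, with 6 of 12 called higher. The part of these cells in the differences of the 10 genes was not tested.

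The third question is MitoQ after TAC. Between Con-TAC-MQ and Con-TAC, 0 of 10 were called by limma, edgeR or DESeq2 and 0 had an unadjusted p under 0.05, beside 3.23% of all genes called (526, and 48 to 1756 when single hearts were left out) and 18.8% at that level. All groups overlapped, where 1.33% of all genes did not. All 10 differences were positive, from 0.03 (Calr) to 0.29 (Hspa5), where 50.9% of all genes were positive. The 95% intervals spanned -0.30 to 0.62. Without Con-TAC-MQ 3, 5 of the 10 were negative and Hspa5 was the largest at log2 0.18. Between cSirt4-Tg-TAC-MQ and cSirt4-Tg-TAC, 0 of 10 were called by limma, edgeR or DESeq2, beside 17.3% of all genes, and 1 (Creld2) had an unadjusted p under 0.05, against 31.8%. Hspa5, Hsp90b1 and Dnajb9 were the 3 with positive differences (50% of all genes; log2 0.26, 0.18 and 0.10), and the other 7 ran from -0.44 (Creld2) to -0.16 (Manf). The 95% intervals spanned -0.88 to 0.57. All groups overlapped here too (6.57% of all genes did not), and this comparison also uses the cSirt4-Tg-TAC hearts. Between cSirt4-Tg-TAC-MQ and Con-TAC-MQ, 0 of 10 were called by limma, edgeR or DESeq2 and 0 had an unadjusted p under 0.05, beside 0.0737% of all genes called and 4.11% at that level. All 10 differences were negative (-0.25 to -0.04), where 48.2% of all genes were positive, and the groups overlapped (0.873% of all genes did not). Without Con-TAC-MQ 3, 6 of the 10 were positive and 4 negative (-0.16 to 0.12). The 95% intervals spanned -0.64 to 0.28. The difference between the 2 responses to MitoQ was called for 0 of 10 by limma, edgeR or DESeq2, beside 0% of all genes. All 10 were negative, where 49.8% of all genes were positive, and 5 of the 10 kept their sign in every alternative. Without Con-TAC-MQ 3, 2 were positive and 8 negative. A single gene, Pdia4, had an unadjusted p under 0.05, beside 8.46% of all genes (log2 -0.55, unadjusted p = 0.0248, adjusted p = 0.574). Without Con-TAC-MQ 3 its value was log2 -0.33 (unadjusted p = 0.0619, adjusted p = 0.953).

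**Figure D4:**
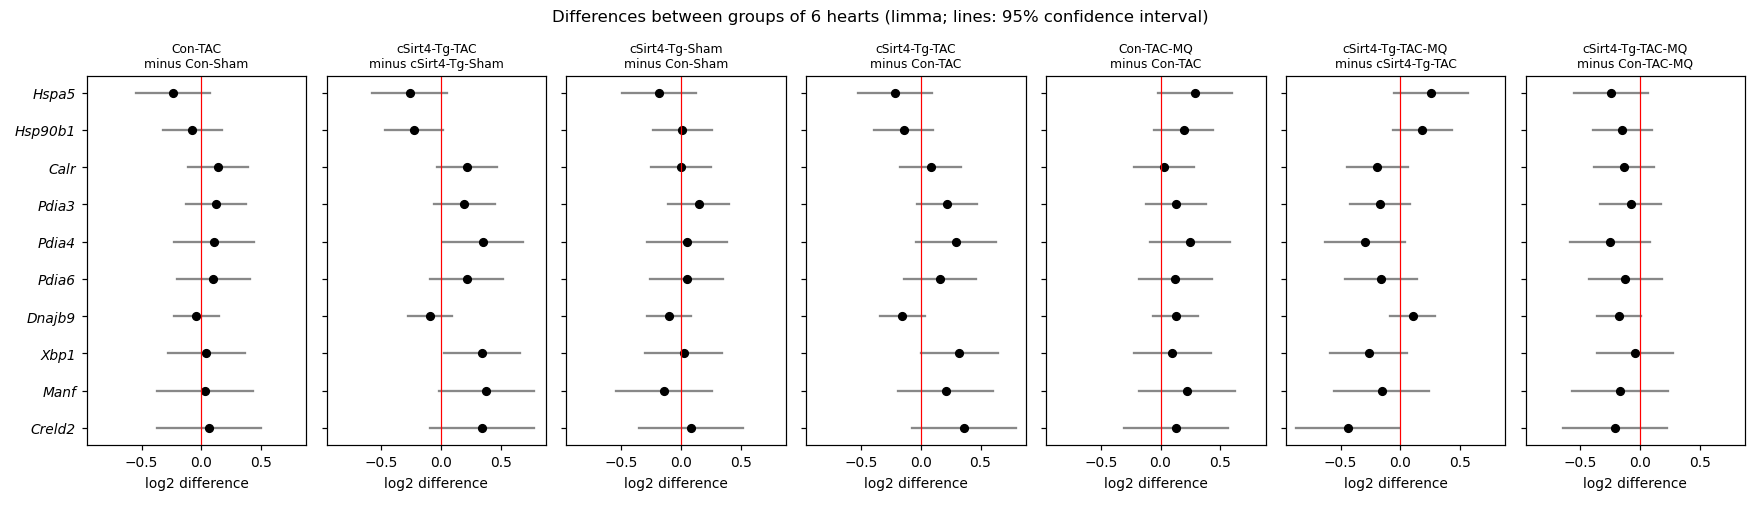
Log2 difference between groups of 6 hearts (points) with its 95% confidence interval (lines) for the 10 genes (rows) in 7 comparisons (panels). Nearly all intervals cross 0; those that do not (Pdia4 and Xbp1 in cSirt4-Tg-TAC minus cSirt4-Tg-Sham, Xbp1 against Con-TAC, Creld2 with MitoQ) did not pass after adjustment.

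Single hearts stood high or low in many of the genes at once. In Con-TAC-MQ 3 all 10 genes were the highest of the group and 8 the highest of all 36 hearts. It held 2.55 times the mean of the other 5 for Creld2 (902), 2.44 times for Pdia4 (2288) and 2.40 times for Manf (2290.3). Hspa5 was 1.55 times (27838) and Dnajb9 1.09 times (1633). The same heart had the highest fibroblast sum of its group (136844, the others at most 86574) and the highest macrophage sum (22419.6, the others at most 13253). Its cardiomyocyte sum was the lowest of the group (1342524, the others at least 1971682), and the part of these cells was not tested. The genes were also low together in some hearts: 9 of 10 were the lowest of their group in Con-Sham 5 and in Con-TAC 2, and 8 in cSirt4-Tg-TAC-MQ 3. The median within-group SD of the 10 genes was 0.420 on the log2 scale in Con-TAC-MQ, where it was 0.194 for tested genes with a mean of at least 100. It was 0.237 in cSirt4-Tg-TAC-MQ, where those genes had 0.118, and 0.138 in cSirt4-Tg-Sham, where they had 0.184.

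**Figure D5:**
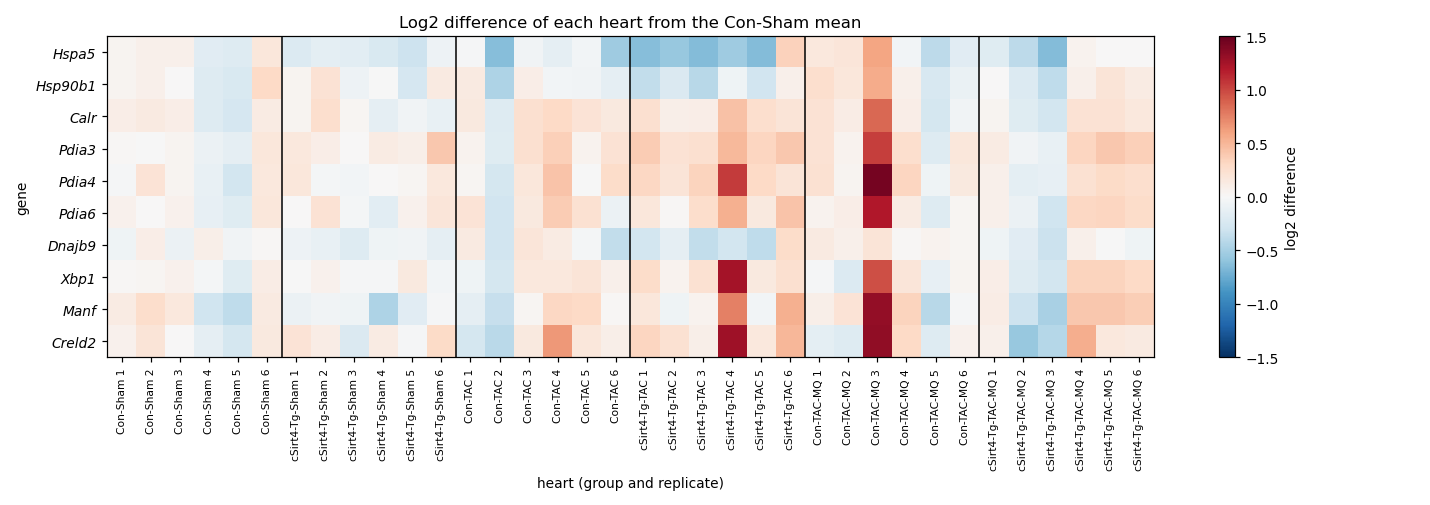
Log2 difference of each heart (columns, by group and replicate) from the Con-Sham mean for the 10 genes (rows), with red above and blue below 0. Con-TAC-MQ 3 is red in all rows; in cSirt4-Tg-TAC, hearts 1 to 5 are blue for Hspa5 and heart 6 is not.

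The 10 genes varied together among hearts of the same group. After the group means were removed, the 45 pairs had correlations from 0.17 to 0.92 (median 0.79) over the 36 libraries, none negative and 36 above 0.5. Libraries share their scaling and tissue makeup, so these are a description of the hearts. Without the 4 libraries least like their group the range was 0.42 to 0.91 (median 0.75). Pdia6 and Manf were the most alike pair, and Pdia4 and Dnajb9 the least. Dnajb9 had a median correlation of 0.35 with the other 9, and Pdia3, the highest, 0.84. With the 4 libraries left out, Dnajb9 had 0.54 and Pdia3 0.76, and Pdia6 was the highest at 0.81. Of 10965 other genes, 2.51% correlated above 0.5 with the mean of the 10, and the most alike was Sdf2l1 (0.93), a partner of endoplasmic reticulum J proteins. Rpn1 of the oligosaccharyl transferase (0.87), the Hspa5 nucleotide exchange factor Hyou1 (0.86) and the co-chaperone Dnajb11 (0.83) followed. Next came Grwd1 (0.78), Cfp (0.73), Selenos (0.73) and Dnajc3 (0.73).

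Other genes of the same compartment, in 5 lists with 116 genes tested in all, were examined beside the 10. Between cSirt4-Tg-TAC and cSirt4-Tg-Sham, 9 higher and 3 lower of 34 other chaperones and folding enzymes were called, beside 7.91% higher and 8.77% lower among all genes. Their median difference was log2 0.20. The calcium-binding chaperone Rcn3 rose from 673 ± 109.99 to 1262 ± 424 (log2 0.85, SE 0.20, adjusted p = 0.00550), the cyclophilin Ppic from 484 ± 68.4 to 839 ± 269 (log2 0.73, SE 0.16, adjusted p = 0.00387), and the thioredoxin-domain isomerase Txndc5 from 1508 ± 105 to 2391 ± 697 (log2 0.62, SE 0.15, adjusted p = 0.00589). In the same comparison the counts were 7 higher and 1 lower of 19 sensors and regulators of the unfolded protein response, 5 higher and 1 lower of 21 genes of endoplasmic reticulum associated degradation, 6 higher and 0 lower of 26 genes of translocation and glycosylation and 9 higher and 1 lower of 16 genes of collagen folding. The collagen folding list also holds the collagen chains Col1a1 and Col1a2, which are folded there and are among the fibroblast markers too. Its counts, and those of the 5 lists together, are therefore not of folding genes alone. Atf4, the effector of the Perk branch, rose from 1573 ± 155 to 2380.5 ± 461 (log2 0.58, SE 0.13, adjusted p = 0.00387), and Creb3l2, a membrane-bound relative of Atf6, from 1151 ± 190.0 to 2004 ± 586 (log2 0.76, SE 0.18, adjusted p = 0.00430). The collagen prolyl hydroxylase P3h2 rose from 168 ± 42.7 to 523 ± 236 (log2 1.49, SE 0.33, adjusted p = 0.00391). Over the 5 lists together the counts were 36 higher and 6 lower with all hearts, 19 higher and 1 lower without cSirt4-Tg-TAC 4 and 49 higher and 7 lower without cSirt4-Tg-TAC 6. Without cSirt4-Tg-TAC 6, 13.4% of all genes were called higher and 14.9% lower. The share of all genes without cSirt4-Tg-TAC 4 is not given here.

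Between Con-TAC and Con-Sham the 5 lists held 6 higher and 0 lower of 116, beside 2.65% higher and 2.65% lower among all genes. Without the 4 libraries least like their group they held 16 higher and 3 lower, where the share of all genes is not given here. Among the 6 were Ppic (log2 0.56, SE 0.16, adjusted p = 0.0412), the Creld2 relative Creld1 (log2 0.30, SE 0.09, adjusted p = 0.0428) and Creb3 (log2 0.37, SE 0.10, adjusted p = 0.0302). Between cSirt4-Tg-TAC and Con-TAC they held 16 higher and 0 lower, beside 3.19% and 3.29% of all genes. The main disulfide isomerase P4hb was higher in cSirt4-Tg-TAC (9301 ± 1690.0) than in Con-TAC (6319.8 ± 686; log2 0.54, SE 0.13, adjusted p = 0.0165), and so was the collagen chaperone complex gene Crtap (log2 0.50, SE 0.10, adjusted p = 0.00606). That count was 1 higher and 0 lower without cSirt4-Tg-TAC 4 and 33 higher and 4 lower without cSirt4-Tg-TAC 6. Between cSirt4-Tg-Sham and Con-Sham, limma and edgeR called 0 of 116 (9 at an unadjusted p under 0.05 by limma) and DESeq2 1, beside 0.786% called higher and 0.0860% lower among all genes by limma. Without the 4 libraries limma called 8 higher and 0 lower, where 1277 of the 16275 genes tested were called.

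With MitoQ, cSirt4-Tg-TAC-MQ hearts differed from cSirt4-Tg-TAC hearts in 5 higher and 29 lower of the 116 genes, beside 9.89% higher and 7.44% lower among all genes. The counts were 1 higher and 9 lower for the other chaperones, 2 higher and 5 lower for sensors and regulators, 1 higher and 4 lower for degradation, 0 higher and 8 lower for translocation and glycosylation and 1 higher and 3 lower for collagen folding. Leaving out cSirt4-Tg-TAC 4 gave 5 higher and 23 lower over the 5 lists, where the share of all genes is not given here. Without cSirt4-Tg-TAC 6 collagen folding had 1 higher and 9 lower, and the 5 lists 8 higher and 42 lower, beside 14.8% higher and 12.5% lower among all genes. Without the 4 libraries least like their group the 5 lists had 11 higher and 47 lower, beside 15.2% and 13.4% of all genes. In the same comparison 4 of 12 fibroblast markers and 1 of 12 macrophage markers were called lower and 1 of 12 cardiomyocyte markers higher. The share of reads from the ribosomal RNA row Rn18s-rs5 was 2.38 to 11.8% in cSirt4-Tg-TAC and 0.591 to 1.33% in cSirt4-Tg-TAC-MQ, with no overlap. Con-TAC hearts had 1.55 to 9.22% and Con-TAC-MQ hearts 0.636 to 1.39%, so both MitoQ comparisons of the 10 genes carry this difference as well. The median share was 6.43% in Con-Sham, 5.45% in cSirt4-Tg-Sham, 1.87% in Con-TAC and 4.94% in cSirt4-Tg-TAC. With overlapping ranges, TAC in controls and genotype after TAC thus carry a difference in this share too. The part of cell types and of this share in any of these comparisons was not tested. Creb3 was lower at 686 ± 33.9 against 1039 ± 184 (log2 -0.58, SE 0.10, adjusted p = 0.000338), Atf4 at 1616 ± 342 against 2380.5 ± 461 (log2 -0.56, SE 0.13, adjusted p = 0.00368) and Rcn3 at 672 ± 96.2 against 1262 ± 424 (log2 -0.85, SE 0.20, adjusted p = 0.00468). The sensor Atf6 was higher (log2 0.39, SE 0.10, adjusted p = 0.00685), as was the degradation adaptor Sel1l (log2 0.34, SE 0.09, adjusted p = 0.00662). Sec62 of the translocon was lower with MitoQ in cSirt4-Tg-TAC-MQ (log2 -0.38, SE 0.08, adjusted p = 0.00191) and in Con-TAC-MQ (log2 -0.35, SE 0.08, adjusted p = 0.0178). In control mice with MitoQ the 5 lists held 1 higher and 2 lower of 116, beside 1.92% and 1.31% of all genes, and 10 higher and 17 lower without the 4 libraries. Between the 2 MitoQ groups limma, edgeR and DESeq2 called 0 of 116 (4 at an unadjusted p under 0.05 by limma), beside 0.0492% higher and 0.0246% lower among all genes by limma, and limma called 5 higher and 1 lower without the 4 libraries. The interaction of genotype with TAC or with MitoQ was called for 0 of 116 genes by limma, edgeR and DESeq2 over all hearts. At an unadjusted p under 0.05 there were 7 for TAC (6.03%, beside 5.83% of all genes) and 23 for MitoQ (19.8%, beside 8.46%). Without the 4 libraries limma called 5 higher and 0 lower for TAC and 0 higher and 7 lower for MitoQ. Of all genes, 347 were then called for the interaction with TAC. For the interaction with MitoQ and the comparisons with Con-TAC-MQ, the share of all genes without the 4 libraries is not given here.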

How the data were processed

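Per the labels' protocols, RNA of 36 whole mouse hearts was taken with an RNeasy Fibrous Tissue kit, and NEB's Ultra II Directional kit, which marks strand, gave the libraries. Trim Galore, STAR and the build mm39 are named in the submitters' processing notes; versions, read counter and normalizing tool are not stated there. The authors deposited 1 table of normalized counts (a signal scaled per library). In each library 100% of values were whole multiples of 1 step (tolerance 0.01), which gave back reads; library totals are sums of these. Python 3.11.15 and R 4.3.3 were used.

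Genes that reached 10 in 6 or more libraries (16275 of 25626) were tested with limma 3.58.1 on log2(value + 1), with trend and robust settings. All 36 libraries were fitted with 1 mean per group. Contrasts were two-sided, with Benjamini-Hochberg adjustment over all genes tested and a threshold of 0.05. The deposited values are not raw counts, so edgeR 4.0.16 and DESeq2 1.42.0 were run only as alternatives, on the recovered reads. Scripts were tested on simulated data. Replicate numbers of the labels did not pair samples: 42 same-numbered pairs correlated from -0.48 to 0.31. Levels per kilobase used exon lengths of GENCODE M21, with all exons of a gene joined. The named genes were all 10 members, Sirt4, and from each list of other endoplasmic reticulum genes up to 3 called genes per comparison, those with the smallest adjusted p, of which some are given. The genes most alike the mean of the 10 were ranked by Pearson correlation after each group's mean was removed. The members and lists were chosen with earlier results of these data known.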

Additional observations from a re-analysis of the deposited data

Results flagged for a closer look

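In 14 of the 60 groups of 6 hearts (10 genes in 6 groups), 1 heart stood apart, its gap to the nearest other heart being more than 0.625 of the group's range. Chance flags about 1 in 20 groups, and the 10 genes vary together, so these are not separate events.

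Con-TAC-MQ 3 accounts for 7 of them: Calr at 13482, Pdia3 at 7789, Pdia4 at 2288, Pdia6 at 4758, Xbp1 at 3051, Manf at 2290.3 and Creld2 at 902. In cSirt4-Tg-TAC 4, Pdia4 stood apart at 1748, Xbp1 at 3701 and Creld2 at 864. In cSirt4-Tg-TAC 6, Hspa5 did at 23466 and Dnajb9 at 1732. Calr was low in Con-TAC 2 at 6453, and Pdia3 was high in cSirt4-Tg-Sham 6 at 5035.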

How the results depend on the processing

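Over all hearts, and under every alternative not named here, 0 of the 10 genes were called in each comparison. Shares of all genes called under the same setting stand in brackets. Between cSirt4-Tg-TAC and cSirt4-Tg-Sham the count was 2 with array weights (30.3%) and 1 with the libraries of name numbers 7 to 14 (17.5%), and leaving out single hearts gave 0 to 1. Between cSirt4-Tg-TAC and Con-TAC it was 2 with array weights (22.8%), 1 with the name number class as a covariate (20.4%) and 2 with the libraries named 7 to 14 (25.2%), and leaving out single hearts gave 0 to 2. Between cSirt4-Tg-TAC-MQ and cSirt4-Tg-TAC it was 3 with array weights (35.4%) and 1 with the name number class (15.7%), and leaving out single hearts gave 0 to 1. The upper end came each time without cSirt4-Tg-TAC 6 (28.3%, 22.4% and 27.3% in this order). With the name number class, the MitoQ difference rests on Con-TAC 6, the only heart numbered 20 or 21 without MitoQ. In alternatives chosen after seeing the data, each of these 3 comparisons had 2 calls without the 4 libraries least like their group (28.7%, 26.0% and 28.6%) and 2 without Con-TAC 6 and cSirt4-Tg-TAC 6 (30.8%, 30.1% and 29.9%). The genes called were Hspa5, Hsp90b1 and Dnajb9. The cause was not tested. The replicate block, with numbers that do not pair the samples, left 0 of 10 called in every comparison.

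Counts over all genes moved in both directions. For Con-TAC against Con-Sham (863 over all hearts) they ran from 24 with the libraries named 7 to 14 to 3157 with array weights. For Con-TAC-MQ against Con-TAC (526) they ran from 26 with only the libraries compared to 2870 with array weights. Array weights gave 5761 for cSirt4-Tg-TAC-MQ against cSirt4-Tg-TAC (2821) and 405 for the 2 MitoQ groups (12). Fitting only the libraries compared gave 1 for cSirt4-Tg-TAC against Con-TAC (1054) and 712 against cSirt4-Tg-Sham (2716), and leaving out Con-TAC 6 and cSirt4-Tg-TAC 6 gave 4905 and 5011. For cSirt4-Tg-Sham against Con-Sham (142) the range was 24 to 1277. The interactions were 0 over all hearts; that with TAC reached 347 without the 4 libraries least like their group, and that with MitoQ 1400 without Con-TAC 6 and cSirt4-Tg-TAC 6.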
